A study of Mus musculus with 2 samples.

Results

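The peaks described here are SRCAP CUT&RUN peaks that lie in exons of protein-coding genes but away from promoters. A peak was a member when its midpoint fell in a coding exon or an untranslated region (UTR) of a protein-coding gene and outside the window from 1000 bp upstream to 500 bp downstream of every annotated transcription start site (TSS). The members were taken from each list on its own, 831 of the 28718 peaks of the GFP antibody and 895 of the 28167 peaks of the SRCAP antibody. In the GFP list 453 lay in coding sequence, 353 in a 3′ UTR and 25 in a 5′ UTR, and in the SRCAP list the counts were 497, 368 and 30.

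The cells were SYAT mouse embryonic stem cells (mESCs), kept in serum and LIF for experiments. Both Srcap alleles carry YPet-AID at their 3′ end in a single homozygous clone of CGR8 cells, which was then transduced with a lentivirus expressing the auxin receptor OsTir1 from an EF1a promoter and sorted for cells that lost YPet on auxin. One library was made with a GFP antibody, which binds the YPet tag, and one with an antibody against SRCAP itself, each from 100000 cells fixed in 0.1% formaldehyde for 5 min. Routine culture of SYAT cells was with Auxinole, an inhibitor of OsTir1, which is the study's control condition, and the mapping is presented in the study as that of control cells, although neither library's own labels name a treatment. The study's methods describe CUT&RUN with the SRCAP antibody alone, so that CUT&RUN was used for GFP is taken from the sample's label. With 1 library per antibody there were no replicates and no test between antibodies, the depth is unknown, and all intervals below are 95% intervals that cover counting error only. A peak list holds no transcript levels, so the identity of the cells could not be checked by marker genes.

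SRCAP is the ATPase of a remodelling complex that replaces histone H2A with the variant H2A.Z in nucleosomes, and both are best known from nucleosomes flanking the TSS of active genes. Exons differ from the introns around them in base composition, since coding sequence is richer in G and C. CpG islands are stretches rich in unmethylated CpG that overlap most housekeeping promoters, although some lie inside genes. CTCF is a zinc finger protein that anchors chromatin loops and binds a long motif at many sites, most of them outside promoters.

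Of the 11 exact consensus sequences searched on both strands in the 200 bp around each midpoint, the CTCF core had the largest share among exon peaks relative to exon sequence of the same GC content, in both lists. It was present at 37 of the 831 GFP members and 38 of the 895 SRCAP members, and 8 pairs of overlapping members held it at the same site in both lists. Those sites are shown because they are where an exon, a peak of each antibody and the CTCF consensus coincide. Pairs with a motif in both members were not particular to CTCF, as the E-box CACGTG had 10 and the NFY core CCAATCA 8. Each line gives 30 bases of GRCm38 read 5′ to 3′ on the strand of the consensus, with the consensus in capitals.
Mettl14 3′ UTR, chr3:123372093-123372122, minus strand: ccttggaagCCACTAGAGGGCgcgtctgtc
Cryzl1 3′ UTR, chr16:91694873-91694902, plus strand: gtcagccgtCCACTAGAGGGCagccatgca
Fgfr1 3′ UTR, chr8:25575284-25575313, minus strand: ccaaagcaaCCAGCAGGTGGCagaattgag
Tnfrsf1b 3′ UTR, chr4:145214570-145214599, plus strand: caggacgggCCACCAGGGGGCagacgtgtt
Gpt2 3′ UTR, chr8:85526291-85526320, minus strand: ctgctgcgaCCAGCAGAGGGCgatggtatg
Pdia4 coding exon, chr6:47799219-47799248, plus strand: agtatacaaCCACCAGGGGGCgtttgctgt
Tfap4 coding exon, chr16:4551199-4551228, plus strand: tcacactggCCAGCAGAGGGCactgcttca
Synpo2l coding exon, chr14:20661153-20661182, minus strand: ttcatgcagCCACTAGGGGGCaggagttac

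At the site in the 3′ UTR of Mettl14, which encodes a subunit of the RNA m6A methyltransferase, the peak scored 154 for GFP and 116 for SRCAP. The score is a whole number that the authors' caller gave each peak, and the median over a whole list was 47 in both. Cryzl1, a quinone oxidoreductase-like gene, scored 84 and 139. Fgfr1, a fibroblast growth factor receptor, scored 61 and 97. Both sites were above the median of each list, with the higher value in the SRCAP list.

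Tnfrsf1b, the second receptor for tumor necrosis factor, scored 51 and 105 in the GFP and SRCAP lists. Pdia4, a disulfide isomerase of the endoplasmic reticulum, scored 47 and 97. The site in Tfap4, a helix-loop-helix transcription factor, scored 44 and 97. These SRCAP scores were all well above the list's median, whereas the GFP scores lay near it. Gpt2, a mitochondrial alanine aminotransferase, scored 32 and 38, and Synpo2l, an actin-associated protein, scored 40 and 38, so these sites were below the median of both lists.

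The CTCF core was found at 4.45% of GFP members (3.25 to 6.08%) and at 4.25% of SRCAP members (3.11 to 5.77%), against 0.152% of 602602 exon positions taken at every 100th exon base outside promoters. Weighted to the GC content of the members, those positions gave 0.234% for the GFP list and 0.241% for the SRCAP list, so the members stood 19.0-fold and 17.6-fold above exon sequence of the same GC content. In the GFP list the core was more frequent in exon peaks than in intron peaks, where it stood at 2.04%, with a difference of 2.41 percentage points (1.17 to 4.06). In the SRCAP list intron peaks held it at 3.67%, and the difference of 0.575 points had an interval from -0.633 to 2.15. Neither comparison with intron peaks was matched for GC content. Median GC was 47.8% (GFP) and 48.6% (SRCAP) for intron peaks, against 52.8% and 54.0% for members. Exon peaks of both lists exceeded promoter peaks, which held the core at 0.734% (GFP) and 1.21% (SRCAP). Over all peaks the core was at 1.65% (GFP) and 2.88% (SRCAP), and over intergenic peaks at 1.84% and 3.49%. Intron peaks stood 8.73-fold (GFP) and 15.2-fold (SRCAP) above the same GC-weighted exon positions, so an excess over exon sequence was not particular to exon peaks.

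The core was somewhat more frequent in 3′ UTR peaks, with 21 of 353 GFP and 22 of 368 SRCAP members, than in coding exon peaks, with 16 of 453 and 15 of 497. The intervals of these classes overlapped in both lists, 3.92 to 8.92% against 2.19 to 5.66% for GFP and 3.98 to 8.89% against 1.84 to 4.92% for SRCAP. It read along the strand of the gene at 16 of the 37 GFP members and 14 of the 38 SRCAP members. Members with the core were shared between antibodies at 51.4% (35.9 to 66.6%) for GFP and 44.7% (30.1 to 60.3%) for SRCAP, and members without it at 47.2% and 44.2%, inside those wide intervals. Their median score was 39.0 in the GFP list, equal to that of all its members, and 50.0 in the SRCAP list against 39.0 for all its members.

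The SP/KLF and NFY consensus sequences were far rarer at exon peaks than at promoter peaks. The SP/KLF consensus GGGGCGGGG, bound by zinc finger activators of GC-rich promoters, was at 1.56% of GFP members (0.916 to 2.66%) and 1.45% of SRCAP members (0.851 to 2.47%), against 5.91% and 7.85% of promoter peaks. GC-weighted exon positions held it at 0.815% and 0.965%, a value inside the interval of the SRCAP members and just under that of the GFP members. CCAATCA, a core of the promoter factor NFY, stood at 2.17% (1.37 to 3.4%) and 2.68% (1.81 to 3.96%), against 7.58% and 9.13% of promoter peaks. The difference from promoter peaks was -5.42 points (-6.39 to -4.07) and -6.45 points (-7.52 to -5.04). GC-weighted exon positions held CCAATCA at 1.76% and 1.65%, inside the interval of the GFP members and just under that of the SRCAP members.

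The octamer ATTTGCAT, the site of the pluripotency factor OCT4, was at 11 GFP members, or 1.32% (0.741 to 2.35%), and at 2 SRCAP members, or 0.223% (0.0613 to 0.811%). In both lists this was below intron peaks, with differences of -1.32 points (-1.99 to -0.240) for GFP and -2.13 points (-2.50 to -1.47) for SRCAP. This comparison was not matched for GC content. Median GC was 47.8% and 48.6% for intron peaks and 52.8% and 54.0% for members. GC-weighted exon positions held the octamer at 0.496% and 0.433%, under the interval of the GFP members and inside that of the SRCAP members. Both SRCAP members with the octamer, in the 3′ UTRs of Arfgef3 and Npm2, overlapped a GFP member with the same octamer. Arfgef3, a regulator of secretory granules, scored 145 (GFP) and 131 (SRCAP), while Npm2, the oocyte nucleoplasmin, scored 22 and 48.

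NRF1 (GCGCATGCG) was at 2 GFP and 7 SRCAP members, 6 of the latter in coding exons, so it was at 0.241% (0.0660 to 0.873%) of GFP and 0.782% (0.379 to 1.61%) of SRCAP members. GC-weighted exon positions held it at 0.0802% and 0.0951%, inside the interval of the GFP members and under that of the SRCAP members, and all peaks of the lists held it at 0.369% and 0.802%, inside both. YY1 (AAGATGGCG) was at 2 GFP and 6 SRCAP members, or 0.241% and 0.670%, against 0.864% and 0.895% of all peaks and 0.181% and 0.186% of GC-weighted exon positions. Its difference from promoter peaks had an interval that held 0 in both lists. ETS (CCGGAAGT) was at 7 and 5 members, or 0.842% and 0.559%, against 1.16% and 1.35% of all peaks and 0.487% and 0.502% of the positions. CRE (TGACGTCA), at 2 and 5 members, stood at 0.241% and 0.559% against 0.387% and 0.493% of all peaks and 0.224% of the positions for either list. ESRRB (TCAAGGTCA), at 4 and 3 members, stood at 0.481% and 0.335% against 0.595% and 0.529% of all peaks and 0.383% and 0.373% of the positions. ZNF143 (ACTACAATT) was at 1 member of each list, or 0.120% and 0.112%, against 0.209% and 0.206% of all peaks and 0.0485% and 0.0414% of the positions. On counts this low, most of these motifs were not told apart from exon sequence of the same GC content. The exceptions were NRF1, YY1 and CRE in the SRCAP list, whose intervals began at 0.379%, 0.308% and 0.239%. The E-box CACGTG was frequent, at 3.61% (2.54 to 5.11%) and 4.69% (3.49 to 6.28%), but GC-weighted exon positions held it at 3.70% and 3.85%, inside both intervals, and promoter peaks at 5.08% and 5.33%. A match gives letters only, and nothing was measured here on whether a factor was bound.

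A further 4 sites held by overlapping members of both lists are shown for other motifs, again with the consensus in capitals. They are single sites and do not stand for an excess of their motif.
Klhdc4 coding exon, NRF1, chr8:121822060-121822089, minus strand: tggcaggaggtGCGCATGCGtctacaccta
Rasa4 coding exon, ESRRB, chr5:136102191-136102220, minus strand: ccaacaaacggTCAAGGTCAgcacttgtga
Rap2b 5′ UTR, SP/KLF, chr3:61363660-61363689, plus strand: tgggtggaagGGGGCGGGGagcagtggaga
Arfgef3 3′ UTR, octamer, chr10:18584254-18584283, minus strand: tacatttggcaATTTGCATttccagcaggc

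The peak at the Klhdc4 exon scored 54 for GFP and 148 for SRCAP. Rasa4, a Ras GTPase activator, scored 89 and 75, in sequence that met the CpG island criteria. Rap2b, a Ras-like GTPase encoded by a single exon, scored 119 and 91.

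**Figure D1:**
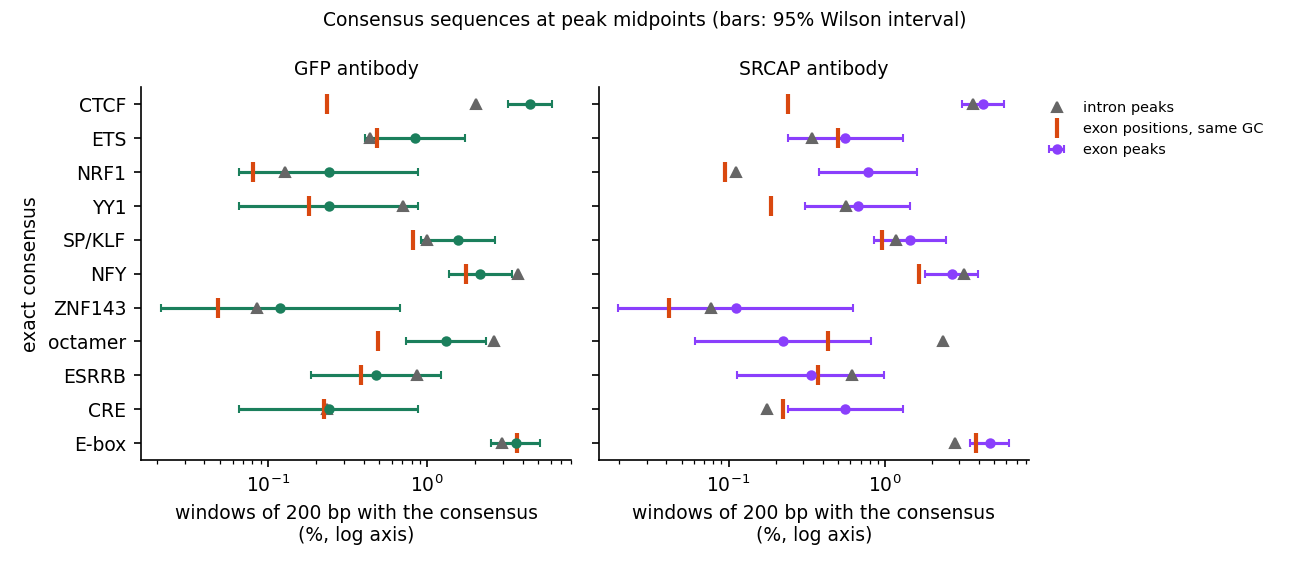
Share of 200 bp windows at peak midpoints with each of 11 exact consensus sequences (x axis, percent, log scale) for exon peaks (circles with 95% Wilson intervals), intron peaks (triangles) and exon positions weighted to the members' GC content (vertical ticks), GFP list left and SRCAP list right. CTCF stood at 4.45% and 4.25% of exon peaks, far right of the exon positions at 0.234% and 0.241%, while the octamer lay left of intron peaks in both lists.

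Exons held more peaks per base than introns before base composition was considered. The members numbered 13.8 per Mb (12.9 to 14.8) of exon sequence outside promoters in the GFP list and 14.9 per Mb (13.9 to 15.9) in the SRCAP list, against 9.03 and 8.73 per Mb in introns and 70.1 and 70.5 per Mb in promoter windows. The ratio of exon to intron density was 1.53 (1.42 to 1.64) for GFP and 1.70 (1.59 to 1.82) for SRCAP. Within exons the 5′ UTRs were densest, at 26.8 (17.3 to 39.5) and 32.1 (21.7 to 45.8) per Mb, followed by coding exons at 16.4 (14.9 to 18.0) and 18.0 (16.4 to 19.6) and by 3′ UTRs at 11.1 (10.0 to 12.4) and 11.6 (10.5 to 12.9). The intervals of coding exons and 3′ UTRs did not overlap in either list, and those of 5′ UTRs and coding exons did not overlap in the SRCAP list and met in the GFP list.

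**Figure D2:**
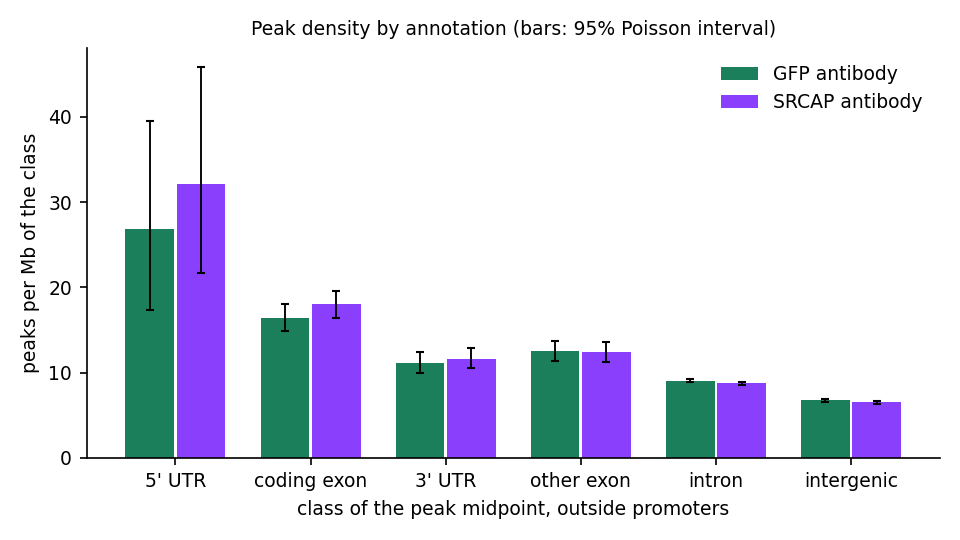
Peaks per Mb of each annotation class outside promoters (y axis) for the GFP list (green) and the SRCAP list (purple), with 95% Poisson intervals. The 5′ UTR bars are highest with wide intervals, coding exons stand at 16.4 and 18.0, and introns at 9.03 and 8.73 per Mb.

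The excess over introns was lost when exons were compared with introns of the same GC content. Density rose steeply with GC up to 65% in both kinds of sequence. GFP members stood at 2.23 per Mb (1.57 to 3.08) where the 500 bp around a position held under 40% GC, and at 50.7 per Mb (40.4 to 62.9) at 60 to 65% GC, while introns of those GC ranges held 1.62 and 67.6 per Mb. In the SRCAP list exons went from 1.75 (1.17 to 2.52) to 78.2 per Mb (65.2 to 93.0) and introns from 1.46 to 92.9. Above 65% GC the exon density was lower again, at 19.9 (9.93 to 35.6) and 47 per Mb (30.7 to 68.9). At the intron density of each 2 percent GC bin the exons would have held 942 GFP and 1036 SRCAP peaks, so the ratio became 0.882 (0.823 to 0.944) and 0.864 (0.808 to 0.923). This comparison was added after the densities had been seen.

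The 3 exon classes differed under this comparison as well. Coding exons held fewer peaks than introns of the same GC content, 0.793 times as many (0.722 to 0.870) in the GFP list and 0.766 times (0.700 to 0.836) in the SRCAP list. For 3′ UTRs the ratio was 0.989 (0.889 to 1.10) and 0.990 (0.892 to 1.10), with 1 inside both intervals. For 5′ UTRs it was 1.76 (1.14 to 2.59) and 1.99 (1.34 to 2.84), resting on 25 and 30 peaks. Density of 5′ UTRs thus stood above introns before and after the account of GC, whereas that of coding exons changed sides.

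**Figure D3:**
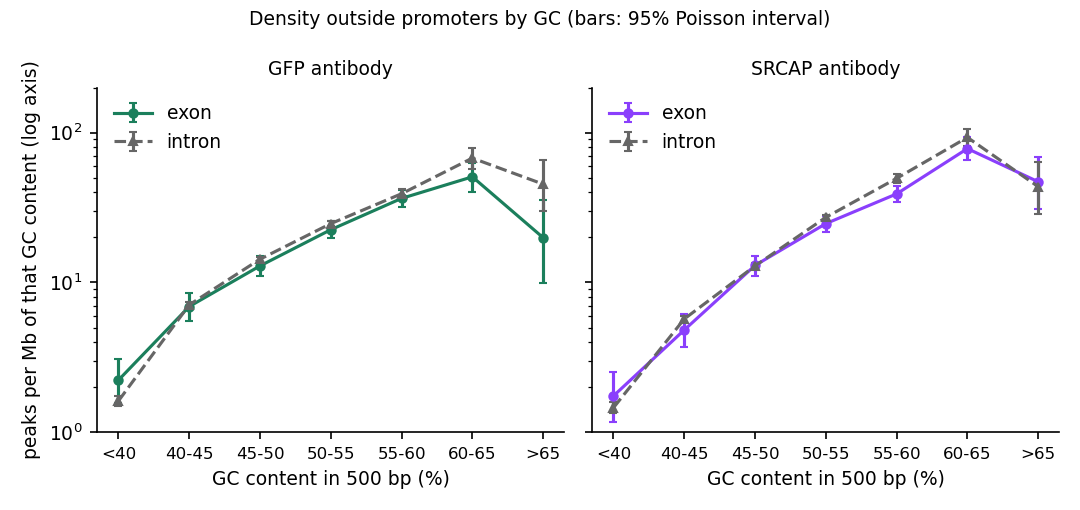
Peaks per Mb (y axis, log scale) by GC content of the 500 bp around the position (x axis, percent) for exons (colored solid lines) and introns (gray dashed lines) outside promoters, GFP list left and SRCAP list right, with 95% Poisson intervals. Exon and intron lines rise together up to 60 to 65% GC, where exons stood at 50.7 and 78.2 and introns at 67.6 and 92.9 per Mb.

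The members lay in sequence of intermediate GC and CpG content. Their median GC content in 500 bp was 52.8% in the GFP list (quartiles 47.6 and 57%) and 54.0% in the SRCAP list (49.1 and 58.0%), against 45.2% for exon positions, 47.8% and 48.6% for intron peaks and 55.2% and 57% for promoter peaks. The median ratio of observed to expected CpG was 0.355 and 0.377, above intron peaks (0.224 and 0.225) and below promoter peaks (0.603 and 0.641). Sequence with over 50% GC and a CpG ratio over 0.6, called CpG island-like here, was found at 97 GFP members, or 11.7% (9.66 to 14.0%), and 132 SRCAP members, or 14.7% (12.6 to 17.2%). It covered 2.08% of exon positions, 2.12% of GFP and 2.26% of SRCAP intron peaks, and 46.4% and 53.9% of promoter peaks.

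CpG island-like sequence was most frequent in 5′ UTR members, at 5 of 25 (20%, 8.86 to 39.1%) for GFP and 12 of 30 (40%, 24.6 to 57.7%) for SRCAP. Coding exons held it at 80 of 453 members (17.7%, 14.4 to 21.4%) and 100 of 497 (20.1%, 16.8 to 23.9%), so their interval overlapped that of 5′ UTRs in the GFP list and not in the SRCAP list. In 3′ UTRs it was at 12 of 353 (3.4%) and 20 of 368 (5.43%). It was also more frequent near start sites. Within 1000 bp of a TSS 14 of 77 GFP members and 26 of 81 SRCAP members were CpG island-like, and beyond 20000 bp 4 of 71 and 3 of 77 were. CpG island-like members scored no higher than the rest, with medians of 39 against 39 for GFP and 38 against 40 for SRCAP.

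The members spread along genes much as exon sequence does, with a higher density close to start sites before GC content was considered. The median distance to the nearest TSS was 4663 bp for GFP and 4285 bp for SRCAP, against 5678 bp for exon positions. Density fell from 21.2 per Mb (16.7 to 26.5) within 1000 bp to 7.82 per Mb (6.11 to 9.86) beyond 20000 bp in the GFP list, and from 22.3 (17.7 to 27.7) to 8.48 (6.69 to 10.6) in the SRCAP list. Set against exons of the same GC content, the ratios near the TSS were 1.17 (0.924 to 1.46) and 1.02 (0.814 to 1.27), which include 1, and those beyond 20000 bp were 0.761 (0.594 to 0.959) and 0.824 (0.650 to 1.03). The nearest TSS belonged to another gene for 35.6% of GFP and 34.7% of SRCAP members, close to the exon positions, of which 63.2% were nearest to a TSS of their own gene.

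By exon rank in the transcript with the longest coding sequence, 469 GFP members (56.4%) and 504 SRCAP members (56.3%) lay in the last of several exons, which hold 61.1% of exon positions. Coding sequence of last exons was denser than coding sequence of internal exons, at 21.5 (18.0 to 25.4) against 14.7 per Mb (13.1 to 16.5) for GFP and 25.3 (21.5 to 29.6) against 15.3 (13.6 to 17.1) for SRCAP. Against exons of the same GC content, internal exons stood at 0.886 (0.790 to 0.989) and 0.845 (0.756 to 0.941), and coding sequence of last exons at 1.11 (0.928 to 1.31) and 1.12 (0.952 to 1.31). Genes made of a single exon held 38 and 40 members, 1.63 (1.15 to 2.24) and 1.43 (1.02 to 1.95) times the number at the exon density of their GC content.

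Exons of 500 to 1500 bp were densest, at 19.0 (16.4 to 21.9) and 21.2 per Mb (18.4 to 24.2), while exons over 3000 bp held 10.6 (9.16 to 12.3) and 12.0 (10.5 to 13.8) and exons under 150 bp 13.1 (10.8 to 15.7) and 12.5 (10.3 to 15.1). These densities by exon length were not matched for GC content. Most peaks were contained by exon sequence, 475 GFP members (57.2%) and 536 SRCAP members (59.9%) over their whole length. At least 50% of the width was exonic for 731 (88.0%) and 823 (92.0%).

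Chromosome 8 carried the most members, 86 for GFP and 100 for SRCAP. This gave 31.8 (25.4 to 39.3) and 37.0 (30.1 to 45) peaks per Mb of exon, against 13.5 (12.5 to 14.5) and 14.4 (13.4 to 15.5) over the other autosomes together. At the same GC content chromosome 8 held 1.90 (1.52 to 2.34) and 2.00 (1.62 to 2.43) times the members of exons in general. Chromosome X held 1 GFP and 0 SRCAP members over 2.27 Mb of exon, with upper limits of 2.46 and 1.63 per Mb. The part that the number of copies of either chromosome may have in these counts was not tested. Without chromosome 8 the exon to intron ratio was 1.51 (GFP) and 1.72 (SRCAP), inside the intervals over all chromosomes. Most members lay on other chromosomes, so leaving chromosome 8 out could move this ratio only a little. The peak density of introns on chromosome 8 is not given here. Whether the excess of members on chromosome 8 was particular to exons over introns was therefore not tested.

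The antibodies shared 394 GFP members, or 47.4% (44.0 to 50.8%), and 396 SRCAP members, or 44.2% (41.0 to 47.5%), where sharing means an overlap of at least 1 bp. Over all peaks 56.2% of the GFP list and 57.7% of the SRCAP list were shared. Exon members were thus shared less than the other peaks of their list, with differences of -9.04 points (-12.5 to -5.59) for GFP and -13.9 points (-17.2 to -10.6) for SRCAP. Against intron peaks the difference was -2.53 points (-6.06 to 1.01) in the GFP list and -7.58 points (-11.0 to -4.15) in the SRCAP list. Promoter peaks were shared at 67.5% in both lists.

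Exon members also had lower scores, with a median of 39.0 in both lists and 36.7% of GFP and 38.5% of SRCAP members at or above the median of the list. Sharing climbed with the score, from 23.8% (19.3 to 29.0%) in the lowest score quartile of the GFP list to 88.9% (81.6 to 93.5%) in the highest, and from 24.0% (19.6 to 29.0%) to 77.7% (69.8 to 84.0%) in the SRCAP list. With the members' mix of score quartiles, the other peaks would be shared at 49.1% in the GFP list, inside the interval of the members, and at 52.0% in the SRCAP list, above it. The gap in the SRCAP list was widest in the second quartile, 38.9% (33.3 to 44.8%) against 50.8% (49.7 to 51.9%). Sharing did not differ beyond the intervals among coding exons (47.0 and 43.3%), 5′ UTRs (52.0 and 46.7%) and 3′ UTRs (47.6 and 45.4%).

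**Figure D4:**
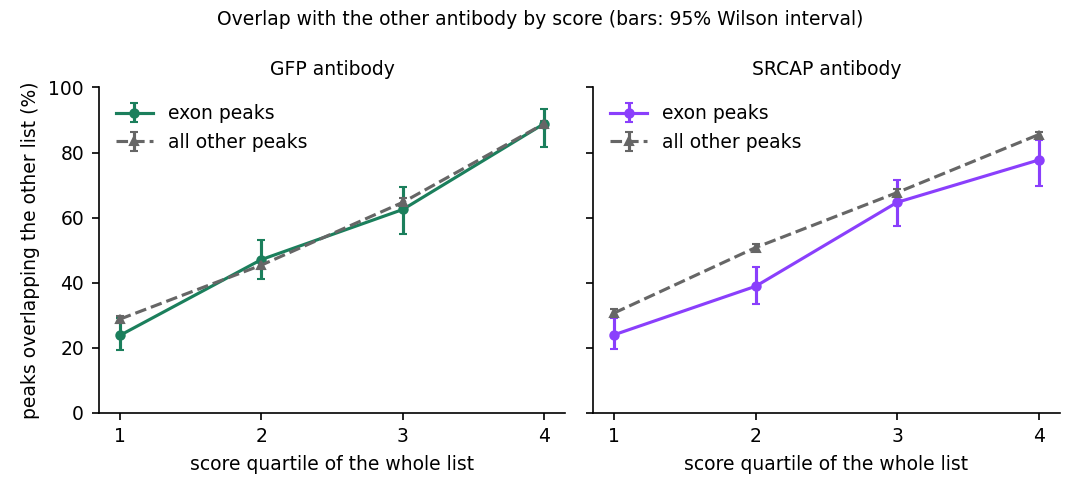
Share of peaks overlapping the other list (y axis, percent) by score quartile of the whole list (x axis, 1 lowest) for exon peaks (colored) and all other peaks (gray dashed), GFP left and SRCAP right, with 95% Wilson intervals. Both lines climb together in the GFP list, to 88.9% of exon peaks, and exon peaks lie below the other peaks in the SRCAP list, most in quartile 2 at 38.9% against 50.8%.

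Of the shared members 333 GFP peaks (84.5%) met an exon member of the SRCAP list, and 51 (12.9%) met a peak whose midpoint was in an intron. Overlapping one to one gave 329 pairs of members, with midpoints a median of 51.0 bp apart and median widths of 329 bp (GFP) and 302 bp (SRCAP). The GFP score was the higher in 158 pairs and the SRCAP score in 164. Across the 329 pairs Spearman's rho between the scores was 0.395, and Pearson's r of their logarithms was 0.706. Without the 2 pairs above 1000 the Pearson r was 0.428 over 327 pairs, and since the points come from the same 2 libraries no p is given.

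**Figure D5:**
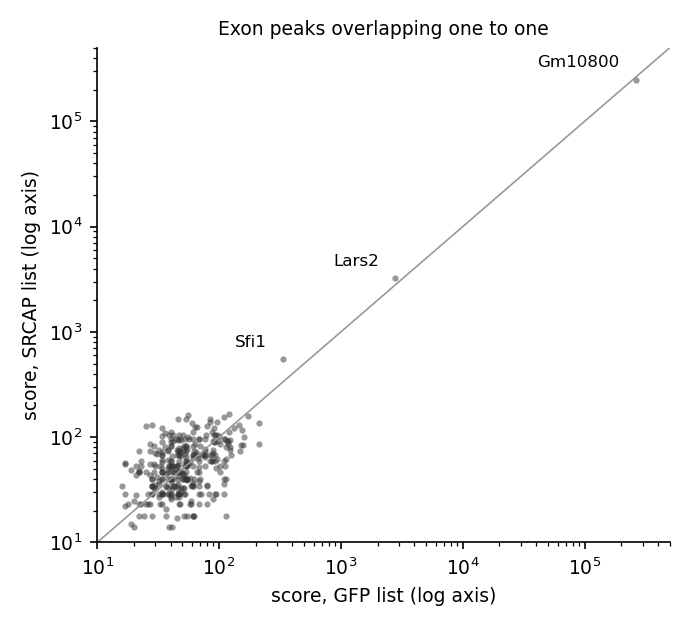
Score in the SRCAP list (y axis, log scale) against score in the GFP list (x axis, log scale) for the 329 pairs of exon peaks overlapping one to one, with the line of equal scores. Gm10800, Lars2 and Sfi1 stand apart at the upper right, and the other pairs form a cloud on both sides of the line, with 158 pairs higher in GFP and 164 higher in SRCAP.

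The highest scores belonged to a few loci that stood far apart from all others. Gm10800, a predicted gene on chromosome 2, scored 265906 for GFP and 249107 for SRCAP, at chr2:98666272-98667328 and chr2:98666257-98667328, and 83.3% and 82.2% of the peak was repeat-masked. Its midpoints lay 501 and 508 bp downstream of the TSS, just past the promoter limit of 500 bp. Lars2, the mitochondrial leucyl-tRNA synthetase, scored 2801 (chr9:123461803-123462179) and 3222 (chr9:123461804-123462171) in its 3′ UTR, with no masked base. Sfi1, a centrosomal protein gene, scored 335 and 552 in a coding exon, with 53.1% and 47.2% masked. The study left ENCODE-blacklisted regions out of its ChIP-seq peak calls. No such regions were removed here, and whether these loci lie in them was not tested. Few members were over 50% masked, 30 (3.61%) for GFP and 29 (3.24%) for SRCAP, against 11.9% and 12.3% of intron peaks.

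Below these, the strongest shared members of the GFP list under 50% masked scored from 132 to 213. Ago3, an Argonaute protein of small RNA silencing, scored 213 in GFP and 86 in SRCAP in its 3′ UTR at chr4:126339431-126339804. Adgra2, an adhesion receptor needed for brain vessels, scored 212 and 136 in its last exon at chr8:27120509-27121173. Camk2g, a calcium/calmodulin-dependent kinase subunit, scored 156 and 85 at chr14:20737183-20737728. All 3 were higher in the GFP list.

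Others of the 12 strongest were Gm15319 (173 and 159), Ushbp1 (161 and 101), Odaph, an enamel gene (152 and 85), Prr15l (148 and 74) and Mboat4, the ghrelin acyltransferase (140 and 51), besides Lars2, Mettl14 and Arfgef3 above. Rpl36, a ribosomal protein gene, scored 132 and 121 in a CpG island-like coding exon whose midpoint was 512 bp (GFP) and 504 bp (SRCAP) from the TSS. Its peak lay next to the promoter limit. In every one of these but Lars2 the GFP score was the higher, and the ranking used that score.

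In the SRCAP list the same ranking gave scores from 136 upward. Bcat2, a mitochondrial branched-chain aminotransferase, scored 169 at chr7:45589165-45589516 and 164 in GFP, where the partner's midpoint was intronic. St3gal2, a sialyltransferase, scored 165 against 120 in GFP. Sorbs2, a cytoskeletal adaptor, scored 164 against 56.

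Itga10, an integrin subunit, scored 148 in SRCAP and 46 in GFP, and Draxin, an axon guidance protein, scored 148 and 84. Bbs2, a subunit of the ciliary BBSome, scored 143 and 69 in its first exon, 503 bp from the TSS, and its GFP partner counted as a promoter peak. Lars2, Sfi1, Gm15319, Klhdc4, Cryzl1 and Adgra2 completed the 12, and Lars2, Gm15319 and Adgra2 were among the 12 of both lists. Adgra2, Gm15319, Ushbp1, Mboat4, St3gal2, Sorbs2, Klhdc4 and Bbs2 all lie on chromosome 8. The share of all peaks on that chromosome is not given here for comparison.

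Strong members without an overlapping peak of the other antibody scored at most 115 for GFP and 176 for SRCAP. In the GFP list they were led by Nlrc5, the transactivator of MHC class I genes, at 115, Xrra1 at 110 and Rhod, a small GTPase, at 107, followed by Cdc37l1, a co-chaperone, at 97 and Rnf168, a ubiquitin ligase of the DNA damage response, at 94. In the SRCAP list the leading members were in 4930564D02Rik at 176, Wfikkn2, an inhibitor of GDF8 and GDF11, at 148, and Acod1, which makes itaconate, at 145. Herpud1, an endoplasmic reticulum stress gene, followed at 131 and Orai3, a calcium channel subunit, at 115. With a single library each, a peak missing from the other list may still have had signal there below the caller's limit.

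The members fell in 795 genes for GFP and 857 for SRCAP, and 354 genes were in both, which is 44.5% and 41.3% of them. A pair of members lay in 36 genes of each list. Only Eps8l1, an actin regulator, held 3, in the SRCAP list, at scores of 67 in a coding exon and 96 and 53 in 3′ UTR sequence, the latter pair overlapped by GFP members at 111 and 33. A promoter peak of the same list was present for 41.8% (38.4 to 45.2%) of GFP and 42.8% (39.6 to 46.2%) of SRCAP genes with an exon member, against 35.0% and 35.6% of all 21951 protein-coding genes. Most genes with an exon peak thus had no promoter peak in that list.

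By symbol, members were counted in 12 gene classes, each over the exon sequence of its genes. Zinc finger genes held 30 GFP and 32 SRCAP members, 1.44 (0.975 to 2.06) and 1.41 (0.967 to 2.00) times the number at the exon density of their GC content, and 7 and 5 of them were over 50% masked. The highest was Zscan22 at 92 and 105. Clustered protocadherins, cell-surface genes of neuronal identity, held 8 GFP members, 3.08 times that number (1.33 to 6.07), and 4 SRCAP members, 1.35 times (0.367 to 3.45), led by Pcdhb14 at 70 and 40. The GFP interval lay above 1 and the SRCAP interval held 1, but the intervals overlapped and rest on few peaks. With 12 classes counted in each list, no correction was made for their number.

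Histone genes held 4 and 2 members, at 9.40 (2.56 to 24.1) and 4.65 (0.564 to 16.8) times the number at the exon density, with Hist2h4 at 51 and 79 in both lists. Ribosomal protein genes held 4 and 2, at 8.08 (2.20 to 20.7) and 4.11 (0.498 to 14.9) times, with Rpl36 and Rpl22 in both. Such genes are short and little of their exon sequence lies outside promoter windows, 0.0387 Mb and 0.0420 Mb, so these ratios rest on very few peaks. The 3 highest GFP members in histone genes lay 806 to 846 bp from the TSS.

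Developmental transcription factors of families such as Fox, Pax, Lhx, Irx and Sox held 8 GFP and 14 SRCAP members, 1.30 (0.563 to 2.57) and 1.75 (0.956 to 2.93) times the number at the exon density. The highest was Irx4, at 56 and 100, followed in the SRCAP list by Sox18 at 60 and Sox1 at 49. Hox genes held 0 GFP members and 2 SRCAP members, in Hoxc5 at 38 and Hoxb13 at 32. The Hox ratio in the SRCAP list was 1.49 (0.181 to 5.39), and none of these ratios differed from 1 beyond its interval.

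Chromatin remodeller and histone methylation genes held 2 and 4 members, 0.368 (0.0446 to 1.33) and 0.660 (0.180 to 1.69) times the number at the exon density. Smarca5, the ISWI ATPase, scored 71 in GFP and met an intronic SRCAP peak of 228. Kdm6b, an H3K27 demethylase, scored 76 in SRCAP and met an intronic GFP peak of 84. Kdm3b, a demethylase of H3K9, held a member of each list at 59 and 23, and Ino80c and Chd4 had SRCAP members at 67 and 24.

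The remaining classes held few members. Olfactory receptors, the odorant receptors of sensory neurons, held 12 and 8, 0.938 (0.485 to 1.64) and 0.690 (0.298 to 1.36) times the number at the exon density of their low GC content, and 4 in each list were over 50% masked. Collagen genes held 1 and 1, keratins 1 and 3, predicted genes named Gm 9 and 20, and genes with Rik names 18 and 16. Each ratio of these classes had 1 inside its interval.

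The promoter limit set which peaks counted. Just outside it, within 100 bp, lay 22 GFP and 21 SRCAP members, with median scores of 28.5 and 34.0 and 9 and 6 of them shared. Just inside, 29 GFP and 28 SRCAP peaks with exonic midpoints had median scores of 38 and 40, and 9 and 9 of them were shared.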

How the data were processed

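CUT&RUN peak lists of SYAT mESCs were used, 1 list per antibody, grouped by antibody as the titles state. The authors deposited peaks with start, end and a whole-number score whose meaning was not stated, and the lowest score was 13 in both lists. The submitters' processing notes name STAR, Picard and MACS2, and the study's reporting summary gives a MACS2 call on paired reads with an input control at default settings for its ChIP-seq data. Whether that control and q-value were used for these CUT&RUN lists is not given in the sources used here. Libraries were selected for inserts of 250 bp and read as pairs of 75 nt. Blacklisted regions were not removed here. Coordinates are those of GRCm38 and were read against its genome sequence (RefSeq) and 141767 GENCODE vM21 transcripts.

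Each peak was placed by its midpoint with promoter windows taken first, then coding exons, UTRs, other exons, introns and lastly intergenic sequence. GC content, CpG ratio and motifs were computed around midpoints and at every 100th exon base, and intron GC at every 1000th intron base, with pandas 2.3.3 and numpy 2.4.6 under Python 3.11.15. The GC comparisons count members against the density of exons or introns in the same bin of 2 percent GC. Intervals are 95% Wilson (shares), exact Poisson (counts) or Newcombe (differences), from scipy 1.17.1 and statsmodels 0.14.6. Peaks are not independent replicates, so no p-value is given. Exon rank follows the transcript with the longest coding sequence. The steps were tested on simulated data, and plots were drawn with matplotlib 3.10.9.

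The members, gene classes and motifs were chosen with earlier results of these data known. Named were, per list, the 12 highest-scoring shared members and the 5 highest unshared ones under 50% repeat-masked, the 3 highest of all, up to 3 of each gene class, genes with 3 or more members, and the highest-scoring shared member with each consensus, described where a result turned on it. The CTCF sites held by members of both lists and the other printed sites were chosen after their values were seen.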

Additional observations from a re-analysis of the deposited data

How the results depend on the processing

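No paired analysis was possible because a single library was made with either antibody. Of 68 recomputed values 31 stayed within the interval of the value given above, or within 1.5 times it for counts, 35 moved and 2 reversed. Restricting to scores at or above the list median left 305 GFP and 345 SRCAP members, raised sharing to 71.1% and 68.4% and lowered the exon to intron density ratio to 1.19 and 1.44. Peaks under 50% repeat-masked, over unmasked sequence, gave ratios of 1.34 and 1.5, and bins of equal GC content, chosen after seeing the data, reversed them to 0.882 and 0.864. A reciprocal overlap of 50% lowered sharing to 35.3% and 32.6%. Giving UTRs precedence over coding sequence gave coding shares of 48.3% and 49.9% and 3′ UTR shares of 48.4% and 46.4%. A 200 bp window gave a median GC of 53.5% and 55.5%, CpG ratios of 0.378 and 0.397 and CpG island-like shares of 16.8% and 19.7%. A 500 bp window gave, for GFP and SRCAP, CTCF at 10.3% and 8.94%, ETS at 1.81% and 1.45%, SP/KLF at 5.05% and 3.8%, NFY at 5.54% and 5.92%, octamer at 2.77% and 2.01%, ESRRB at 1.68% and 1.23% and E-box at 10.3% and 11.5%, and YY1 at 0.963% for GFP. In that window exon positions, not weighted by GC, held CTCF at 0.402%, ETS at 0.682%, YY1 at 0.301%, SP/KLF at 1.25%, NFY at 5.02%, octamer at 2.64%, ESRRB at 0.971% and E-box at 6.68%, so NFY and octamer shares were close to those of exon sequence. The number of members stayed within 1.5 times under a wider promoter window, start sites of protein-coding genes only, protein_coding transcripts only and 50% of the width in exons. Unknown depth limits what a peak missing from 1 list can show.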
